A study of Bos taurus with 20 samples.

Results

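The bone morphogenetic protein (BMP) genes described here are 10, each followed by 1 named probe of 21475 probes on the array. They are the ligands BMP4, BMP5 and BMP6, the protease BMP1, the antagonists GREM1 and BAMBI, the receptor BMPR1A and the targets ID2, ID3 and ID4. They were picked by gene name and probe with earlier results of these data known, and no cut on a measured value was used. RNA came from skin biopsies of cattle, averaging 63 mg and holding epidermis, dermis and dermal connective tissue, per the labels. Biopsies of skin over the site where horns form were taken from 4 polled animals, which are hornless (1 male, 3 female), 4 scurred animals, which carry loose rudimentary horns (3 male, 1 female), and 3 horned animals (2 male, 1 female). Skin from elsewhere on the skull of polled replicate 3 and scurred replicate 2, both female, gave 2 control RNAs. Genotype, breed and age are not given in the sources used here, and the labels name no treatment.

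On each chip, 2 RNAs were hybridised to each of 4 arrays, 20 Agilent arrays on 5 chips in all. Chips 1 to 4 each joined 1 polled, 1 scurred and 1 horned animal, and replicate numbers of polled and scurred animals are chip numbers. Horned replicate 2 served on chips 2 and 4. Polled replicate 2 was the male among polled animals, and scurred replicate 2 the female among scurred animals. Chip 5 set horn site against control site. The share of spots well above background was 62.2% to 73.7% per dye and array. Of the marker lists checked, 7 of 7 basal keratinocyte and 7 of 7 fibroblast genes were above background in enough animals to be tested, and 6 of 7 skeletal muscle genes were too. Epidermal, muscle and red cell markers varied widely between animals. The suprabasal keratinocyte list of 5 tested genes ran from 8.57 to 11.84 in polled, from 8.14 to 13.25 in scurred and from 8.05 to 9.17 in horned animals (mean log2 intensity of an animal).

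BMPs are secreted growth factors of the TGF-beta superfamily. They bind type I receptors such as BMPR1A together with a type II receptor, and the receptors phosphorylate SMAD1, SMAD5 and SMAD9, which enter the nucleus with SMAD4. The ID genes are among the direct targets of these SMADs and encode helix-loop-helix proteins that lack a DNA-binding domain and hold back basic helix-loop-helix factors. GREM1 binds BMPs outside the cell and keeps them from their receptors, and BAMBI is a membrane pseudoreceptor without a kinase domain. BMP1, in spite of its name, is a metalloprotease that trims procollagens and cleaves the BMP antagonist chordin. In skin, BMP signalling is known for its part in hair follicle cycling and in keratinocyte differentiation, and elsewhere for bone formation.

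Each gene's value rests on a probe of 60 bases. The sequences that follow, 30 bases of each, belong to the genes on which the results turn and to the second probes of GREM1 and BMP4 which were dim. Letters are those of the deposited files, 5′ to 3′ as printed there. Capitals mark the hexamer AATAAA or, in probes without it, TTTATT, the same hexamer on the other strand. The ID2 stretch holds both, and its tttatt is left in small letters.
GREM1: gaggataaggggggatttggtagtttcata
GREM1, second probe: tcacgcgtgtcaagcagtgccgttgcatat
BMP4: caaggtggttctgaaaaattatcaggagat
BMP4, second probe: ggtcggTTTATTatgccaagtcctggctag
BMP5: gctatttatgtgggctccacagctaggatt
BMP1: accttccccgcccatctccaagcaccctat
ID4: gattttcactatagctatgttagttaactg
ID3: ttaacattttgcatAATAAAcggtttttaa
ID2: acaaAATAAAtcaagtgtgtttattgaatg
The hexamer AATAAA, the letters of the common polyadenylation signal, stood in the printed strand of 3 of the 10 probes (BAMBI, ID2 and ID3) and of 11.8% of all probes. On the other strand it was in the ID2 probe and in 3.88% of all probes. The ID3 probe had the lowest GC content of the 10, at 20%, and the BMP1 probe the highest, at 50%. The longest run of bases shared by any pair of the 13 probes for these genes, on either strand, was 11 bases. No position in a genome is given because the files name no build.

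Signal was well above background in 40 of 40 array channels for 9 of the 10 genes. BMP6 was dim and reached it in 6 of 12 polled, 7 of 8 scurred and 10 of 12 horned channels of chips 1 to 4. The levels below are log2 intensities of 1 probe each, so they compare animals and not genes. In bulk tissue, fewer cells of a type and less RNA per cell cannot be told apart. Whether animals of 1 group were related is not stated, and p-values measure the spread between these animals.

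**Figure D1:**
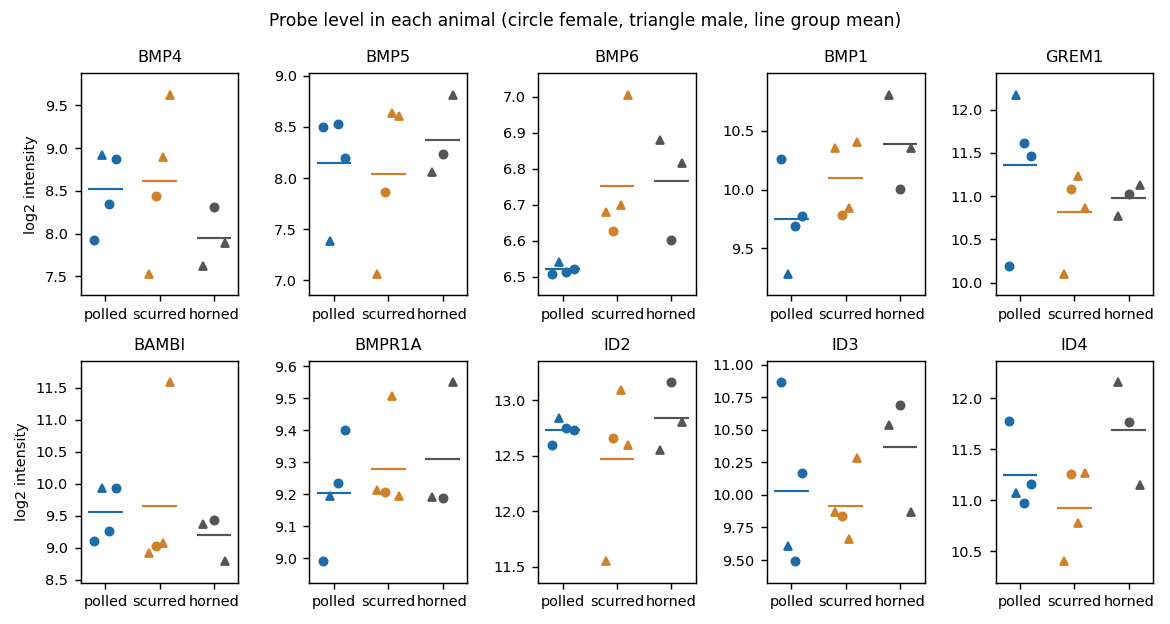
Level of each gene's probe (y axis, log2 intensity, a separate range per panel) in 4 polled, 4 scurred and 3 horned animals, with the group mean as a line. Groups overlap in every panel but BMP6, where the 4 polled animals lie at 6.51 to 6.54 and the others at 6.60 or above. These polled values lie near the background floor, with 6 of 12 polled channels well above it. The share of all probes that part polled animals from the rest was not counted.

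The ligands differed in direction between polled and horned skin, and no difference passed the test. BMP4, a ligand of dermal and mesenchymal cells, was higher in 4 of 4 polled animals than in the horned animal of the same chip. The log2 differences were 0.26, 0.65, 0.49 and 0.58 in polled replicates 1 to 4. The fitted difference was 0.58 (SE 0.284, adjusted p 0.574, limma), and it ran from 0.43 without polled replicate 1 to 0.94 without polled replicate 2. The 0.94 exceeds each polled animal's own difference, in a fit where all polled animals left were female, which parts horn type from sex poorly. In scurred animals BMP4 stood at −0.20, 0.22, 0.89 and 1.30 from horned, with a fitted difference of 0.47 (SE 0.271, adjusted p 1, limma). Mean BMP4 level was 8.52 ± 0.47 in polled (SD, n = 4), 8.62 ± 0.88 in scurred (SD, n = 4) and 7.94 ± 0.35 in horned animals (SD, n = 3). Scurred replicate 4 lay highest at 9.63 and scurred replicate 1 lowest at 7.53, so scurred animals spanned the range of both other groups.

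BMP5, a ligand of the same branch as BMP6, was uneven within groups. Its differences from horned were 0.50, −0.87, −0.32 and −0.059 in the 4 polled and −0.94, −0.38, −0.30 and 0.30 in the 4 scurred animals. The low animals were polled replicate 2 and scurred replicate 1. The fitted difference was −0.31 (SE 0.395) for polled and −0.29 (SE 0.376) for scurred against horned. Mean level was 8.15 ± 0.53 in polled (SD, n = 4), 8.04 ± 0.74 in scurred (SD, n = 4) and 8.37 ± 0.39 in horned animals (SD, n = 3), with overlap between all 3.

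BMP6 was lower in 4 of 4 polled animals than in horned, at −0.45, −0.019, −0.37 and −0.12. Its fitted difference was −0.21 (SE 0.11, adjusted p 0.582, limma), or −0.046 without chip 2. It was −0.75 with the authors' deposited log ratios in place of the intensities. Without chip 2 all polled animals were female and all scurred animals male, so that fit parts horn type from sex poorly. Scurred animals stood at −0.15, 0.090, −0.078 and 0.42, and the fit gave 0.0013 (SE 0.104). Against polled, scurred animals were higher on 4 of 4 chips, with a fitted 0.21 (SE 0.106, adjusted p 0.838, limma), or 0.68 with the deposited ratios. Mean level was 6.52 ± 0.015 in polled (SD, n = 4), 6.75 ± 0.17 in scurred (SD, n = 4) and 6.77 ± 0.14 in horned animals (SD, n = 3). Polled replicates 1 and 3 were not well above background for this probe, so a difference from polled is bounded by that floor.

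The protease BMP1 had the lowest unadjusted p of the 10 genes in polled against horned skin. BMP1 stood at −0.47, −0.53, −0.62 and −0.24 in the 4 polled animals, lower in 4 of 4. The fitted difference was −0.52 (SE 0.195, 95% confidence interval −0.99 to −0.062, adjusted p 0.525, limma). Scurred animals lay on both sides of horned, at −0.22, 0.17, −0.45 and 0.50, with a fitted −0.053 (SE 0.186). Set against polled, scurred animals were higher on 4 of 4 chips, by 0.17 to 0.74, with a fitted 0.47 (SE 0.189, adjusted p 0.808, limma). Mean BMP1 level was 9.75 ± 0.40 in polled (SD, n = 4), 10.10 ± 0.33 in scurred (SD, n = 4) and 10.39 ± 0.40 in horned animals (SD, n = 3). In that order the neighbours overlapped, since polled replicate 1 lay at 10.27, above the lowest horned animal at 10.01. Leaving out chip 2 moved the BMP1 fit most. The polled against horned difference was then −0.067 and the scurred against polled difference −0.18, the other way. Yet on chips 1, 3 and 4 polled animals stood at −0.47, −0.62 and −0.24 from horned, and scurred animals at 0.25, 0.17 and 0.74 from polled. Without chip 2 all polled animals were female and all scurred animals male, so that fit parts horn type from sex poorly.

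By group estimate, fibroblast, macrophage and Schwann cell markers lay the same way as BMP1. Of the 7 fibroblast genes, 7 had a lower estimate in polled than in horned animals and 3 an unadjusted p under 0.05, beside 9.17% of all probes, with a median of −1.10. The list's mean log2 level ran from 13.30 to 14.63 in polled, from 14.12 to 15.25 in scurred and from 14.98 to 15.02 in horned animals. All 7 were also higher in scurred than in polled animals, with a median of 1.13. Macrophage genes were lower in polled than in horned animals for 7 of 7 and higher in scurred than in polled for 7 of 7. Their medians were −0.81 and 0.99. For Schwann cell genes it was 5 of 5 and 5 of 5, with medians of −0.57 and 0.24. Single animals could differ, as scurred replicate 3 stood at 0.37 for the fibroblast list and −0.45 for BMP1. The part of these markers in the BMP1 values was not tested.

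The antagonist GREM1 had its lowest p on chips 1 to 4 between scurred and polled animals. Its differences from horned were −0.63, 1.03, 0.46 and 0.61 in the 4 polled animals and −0.71, −0.16, 0.11 and −0.078 in the 4 scurred ones. Polled replicate 1 was the exception among polled animals, and on chip 1 both the polled and the scurred animal lay below the horned one. Scurred animals were lower than polled on 4 of 4 chips, by 0.076 to 1.19, and the fit gave −0.79 (SE 0.213, 95% confidence interval −1.30 to −0.29, adjusted p 0.784, limma). By p it ranked 150 of 16309 probes. The same difference was −0.57 (SE 0.237) with no sex term and −0.66 (SE 0.444) with no replicate block. On every chip the polled and the scurred animal were of opposite sex. Against horned, the fitted difference was 0.46 (SE 0.219) for polled and −0.33 (SE 0.209) for scurred animals, the second being −0.070 without horned replicate 1. Mean level was 11.36 ± 0.84 in polled (SD, n = 4), 10.82 ± 0.50 in scurred (SD, n = 4) and 10.98 ± 0.18 in horned animals (SD, n = 3). The highest animal was polled replicate 2 at 12.17, and polled replicate 1 at 10.19 lay among the lowest, so all groups overlapped.

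The second GREM1 probe lay near the background floor, at a mean log2 level of 6.45 against 11.06 for the first. It thus cannot decide whether the difference repeats. It was well above background in 12 of 40 channels and gave −0.074 for scurred against polled (SE 0.106), of the same sign. Over the 11 animals its level correlated with that of the first at r = 0.82. Hair follicle markers lay the same way as the first probe, with 7 of 7 lower in scurred than in polled animals, a median of −1.24 and 4 of 7 with an unadjusted p under 0.05, beside 6.08% of all probes. Their mean level ran from 7.62 to 11.10 in polled, from 7.68 to 8.56 in scurred and from 7.70 to 8.14 in horned animals. Polled replicate 2 was the highest for GREM1 and, among polled animals, stood at 2.40 for the hair follicle list against 1.47, 0.054 and −0.075 in the others. Between scurred and polled animals, smooth muscle (6 of 6 lower, median −0.29) and basal keratinocyte genes (6 of 7, −0.32) also had lower medians. So had melanocyte (4 of 5, −0.30), skeletal muscle (5 of 6, −0.26) and endothelial genes (4 of 6, −0.060). The medians of the remaining lists were higher in scurred animals. The part of these markers in the GREM1 values was not tested.

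BAMBI, which dampens BMP and TGF-beta signals at the membrane, was far higher in 1 scurred animal than in the rest. Its differences from horned were −0.28, 0.58, 0.47 and 0.45 in polled and −0.48, −0.31, 0.20 and 2.15 in scurred animals. The value of 2.15 belongs to scurred replicate 4, whose level of 11.59 exceeded the highest polled animal, at 9.94, and the highest horned animal, at 9.43. The fitted difference was 0.46 (SE 0.521) for polled and 0.21 (SE 0.496) for scurred against horned. It was 1.31 for polled without polled replicate 2 and −0.20 for scurred without chip 4. The 1.31 exceeds each polled animal's own difference, in a fit where all polled animals left were female. Scurred replicate 4 was also the highest animal for BMP4 and BMP6. In it the cartilage and bone list of 5 tested genes stood at a median of 1.24 from horned, against −0.26 to −0.13 in the other scurred animals. In scurred replicate 4 the red cell list stood farther from horned, at 3.78 against 0.66 to 2.64 in the other scurred animals. So did its skeletal muscle list, at −2.68 against 0.48 to 2.82. SOST, a BMP and WNT antagonist of osteocytes, stood at 4.90 in that animal, and DLX5, a homeobox factor of bone, at 2.85, both chosen for mention after their values were seen. The part of these markers was not tested.

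BMPR1A, the type I receptor, had the smallest fitted difference between polled and horned skin of the 10. Its differences from horned were −0.17, 0.023, −0.35 and 0.22 in polled and 0.023, −0.035, −0.042 and −0.015 in scurred animals. The fitted difference was −0.055 for polled (SE 0.13, 95% confidence interval −0.36 to 0.25) and −0.053 for scurred (SE 0.124, 95% confidence interval −0.35 to 0.24). The intervals are not adjusted for the number of probes. Its second probe was above background in 2 of 40 channels and was not tested.

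The ID targets had lower estimates in polled and in scurred animals than in horned ones, and none passed the test. Most of the 9 other BMP targets tested lay the other way, with 7 higher and 2 lower in polled than in horned animals (median 0.35), 6 higher and 3 lower in scurred than in horned animals (median 0.16), and 0 of 9 past an adjusted p of 0.05 in either comparison. ID4 was lower than in horned animals in 4 of 4 polled animals, at −0.34, −0.57, −0.16 and −0.69, and in 4 of 4 scurred animals, at −1.83, −0.36, −0.34 and −0.59. The fitted difference was −0.55 for polled (SE 0.331, adjusted p 0.628, limma) and −0.76 for scurred (SE 0.315, adjusted p 1, limma). In its difference from horned, scurred replicate 1 lay far below the other scurred animals, and without chip 1 the scurred difference was −0.36. In level it lay at 10.40, against 10.78 to 11.26 in the others. Its partner, horned replicate 1, had the highest ID4 level of all animals, at 12.16. Mean ID4 level was 11.24 ± 0.36 in polled (SD, n = 4), 10.93 ± 0.42 in scurred (SD, n = 4) and 11.69 ± 0.51 in horned animals (SD, n = 3), with overlap between neighbours.

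ID3 stood at −0.50, −0.57, −0.34 and −0.43 in the 4 scurred animals, lower in 4 of 4 and closely spaced, with a fitted −0.37 (SE 0.211). Polled animals stood at 0.38, −0.87, −0.35 and −0.72, with a fitted −0.44 (SE 0.222). Polled replicate 1 was above its horned partner for ID3 and the other 3 were below. ID2 stood at 0.058, −0.30, −0.054 and −0.48 in polled and at −1.05, −0.41, 0.20 and −0.51 in scurred animals. Its fitted difference was −0.21 (SE 0.263) for polled and −0.40 (SE 0.25) for scurred against horned, with scurred replicate 1 again lowest. That animal had the highest epidermal markers, at 3.04 for the basal and 5.04 for the suprabasal keratinocyte list, and fibroblast markers at −1.11, as medians of the log2 difference from horned. The part of these markers was not tested. Between scurred and polled animals the fit gave −0.22 for ID4 (SE 0.321), 0.078 for ID3 (SE 0.215) and −0.19 for ID2 (SE 0.255).

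**Figure D2:**
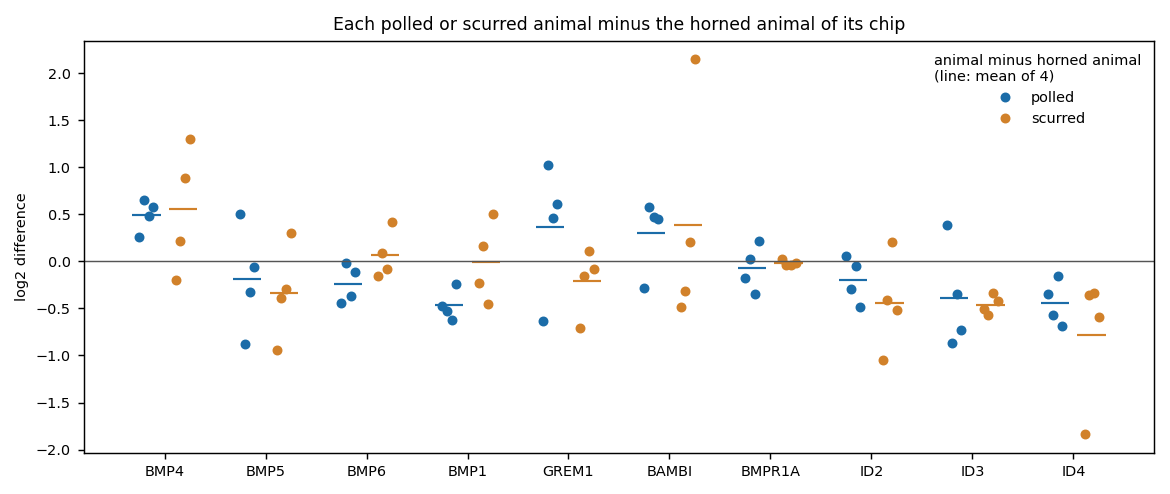
Log2 difference (y axis) of each of 4 polled and 4 scurred animals from the horned animal of its chip, for the 10 genes, with the mean of 4 animals as a line. BMP4 lies above 0 and BMP1, BMP6 and ID4 below 0 in all 4 polled animals, and 1 scurred animal stands at 2.15 for BAMBI and 1 at −1.83 for ID4.

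Counted together, 0 of the 10 genes passed an adjusted p of 0.05 in polled against horned skin, where 0.00613% of all probes did. At an unadjusted p under 0.05 there was 1 of 10, BMP1, beside 9.17% of all probes. The sign was the same in 4 of 4 polled animals for 4 of 10 genes, BMP4, BMP6, BMP1 and ID4, beside 27.1% of all probes. For scurred against horned skin 0 of 10 passed, beside 0% of all probes. There, 1 of 10 had an unadjusted p under 0.05, ID4, beside 3.76%, and 2 of 10 had 1 sign in 4 of 4 animals, ID3 and ID4, beside 18.1%. For scurred against polled skin 0 of 10 passed, beside 0%. An unadjusted p under 0.05 was found for 2 of 10, GREM1 and BMP1, beside 6.08%, and 1 sign on 4 of 4 chips for 3 of 10, GREM1, BMP1 and BMP6, beside 18.9%. Polled against horned and scurred against horned share the horned animals, and scurred against polled shares animals with both, so their values are not independent. The median of the 10 fitted differences was −0.21 for polled against horned, −0.17 for scurred against horned and −0.052 for scurred against polled.

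**Figure D3:**
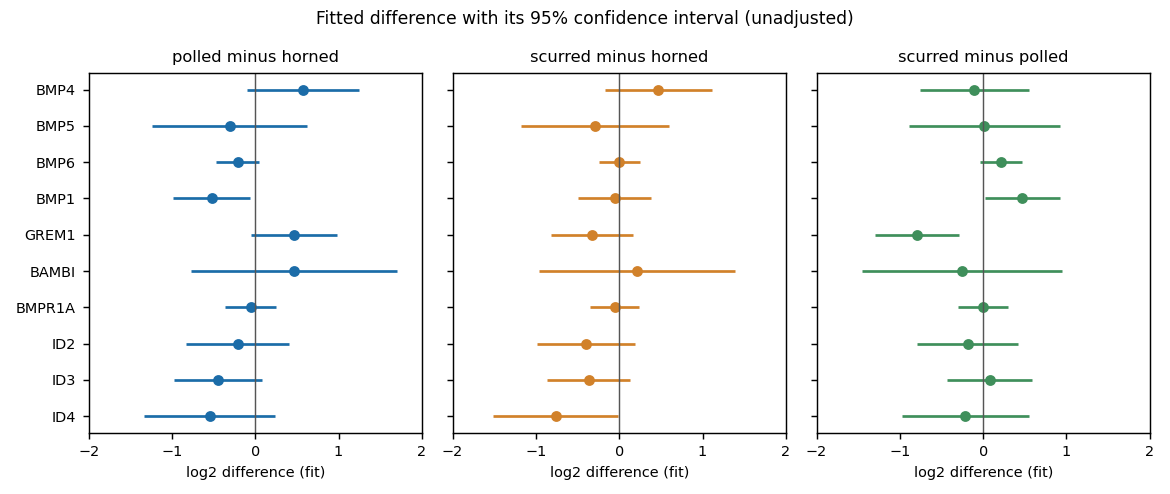
Fitted log2 difference (x axis, adjusted for sex) with its unadjusted 95% confidence interval for the 10 genes in 3 comparisons. The intervals of BMP1 in polled minus horned, of ID4 in scurred minus horned, and of GREM1 and BMP1 in scurred minus polled leave out 0, and no adjusted p is below 0.05.

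None of the 10 genes passed the test between male and female animals. With sex as a term of the same fit, 0 of 10 passed an adjusted p of 0.05, beside 0.0184% of all probes, and 0 of 10 had an unadjusted p under 0.05, beside 2.16%. GREM1 was nearest, at 0.44 higher in males (SE 0.19, 95% confidence interval −0.0095 to 0.89). BAMBI stood at 0.67 (SE 0.452) and BMP4 at 0.33 (SE 0.247). Male and female animals were unevenly spread over horn types, and every chip paired a polled animal of one sex with a scurred animal of the other.

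Chip 5 compared the horn site with skin from elsewhere on the skull of the same animal. GREM1 gave a lower signal at the horn site on 4 of 4 arrays, which are 2 dye orders of each of 2 animals. How many of all probes had 1 sign on 4 of 4 arrays was not counted. The log2 difference of GREM1 was −1.18 and −1.12 on the 2 arrays of the polled animal and −1.01 and −0.76 on those of the scurred animal. Both dye orders of both animals thus gave a negative value, and the mean over the 2 animals was −1.02 (SE 0.127, 95% confidence interval −1.42 to −0.61). It had an adjusted p of 0.934 in limma and ranked 31 of 16423 probes by p, with 1 residual degree of freedom. GREM1 level was 11.63 at the horn site and 12.77 at the control site of the polled animal, and 10.97 at the horn site and 11.86 at the control site of the scurred animal. The second GREM1 probe, dim as before, gave −0.13 and −0.12 in the polled and the scurred animal.

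BMP5 was higher at the horn site on 4 of 4 arrays, at 0.34 and 0.49 in the polled and 0.97 and 1.21 in the scurred animal. The mean was 0.75 (SE 0.221, adjusted p 0.934, limma), or 1.60 with the deposited ratios. Its level was 8.34 at the horn site and 7.93 at the control site of the polled animal, and 7.73 at the horn site and 6.64 at the control site of the scurred animal. BMP4, BMPR1A and ID4 had lower estimates in both animals, at −0.19 and −0.40 for BMP4, −0.17 and −0.25 for BMPR1A and −0.27 and −0.21 for ID4, giving the polled animal before the scurred one. ID4 was lower on 3 of its 4 arrays, and BMP4 was near 0 on 1 array of the polled animal (−0.0033). The second BMP4 probe, well above background in 7 of 40 channels, stood at 0.024 in the polled and −0.052 in the scurred animal. It was well above background in 2 of 11 animals and so was not tested on chips 1 to 4.

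The other genes pointed opposite ways in the 2 animals. BAMBI stood at 0.64 in the polled and −1.10 in the scurred animal, ID2 at 0.31 and −0.54, and BMP1 at −0.36 and 0.36. BMP6 stood at −0.22 in the polled and 0.026 in the scurred animal. ID3 depended on the dye order, with −0.092 and −0.89 on the 2 arrays of the polled and 1.11 and −0.15 on those of the scurred animal. The fitted dye effect on chips 1 to 4 was 0.27 for ID3 and 0.29 for ID4, red minus green, against −0.096 to 0.074 for the other 8 genes. In all, 0 of 10 genes passed, beside 0% of all probes. For 2 of 10, GREM1 and BMP5, the unadjusted p was under 0.05, beside 4.90%, and 5 of 10 had 1 sign in both animals, beside 50.5%.

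Tissue markers differed between the sites as well. Each list is given by its median log2 difference, horn site minus control site, in the polled and then the scurred animal. Lower in both animals, as GREM1 was, were smooth muscle (−0.87 and −0.30), melanocyte (−0.69 and −0.81), hair follicle (−0.023 and −1.81) and basal keratinocyte genes (−0.025 and −0.28). Higher in both, as BMP5 was, were skeletal muscle (0.25 and 3.49), macrophage (0.32 and 1.23), Schwann cell (0.76 and 0.80), endothelial (0.025 and 0.91), adipocyte (0.045 and 0.65) and lymphocyte genes (0.0013 and 0.18). Suprabasal keratinocyte (−1.27 and 0.94), red cell (−0.79 and 1.98), fibroblast (−0.0055 and 0.32) and cartilage and bone genes (0.028 and −0.12) differed in sign between the animals. The part of these markers in the values of the 10 genes was not tested.

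**Figure D4:**
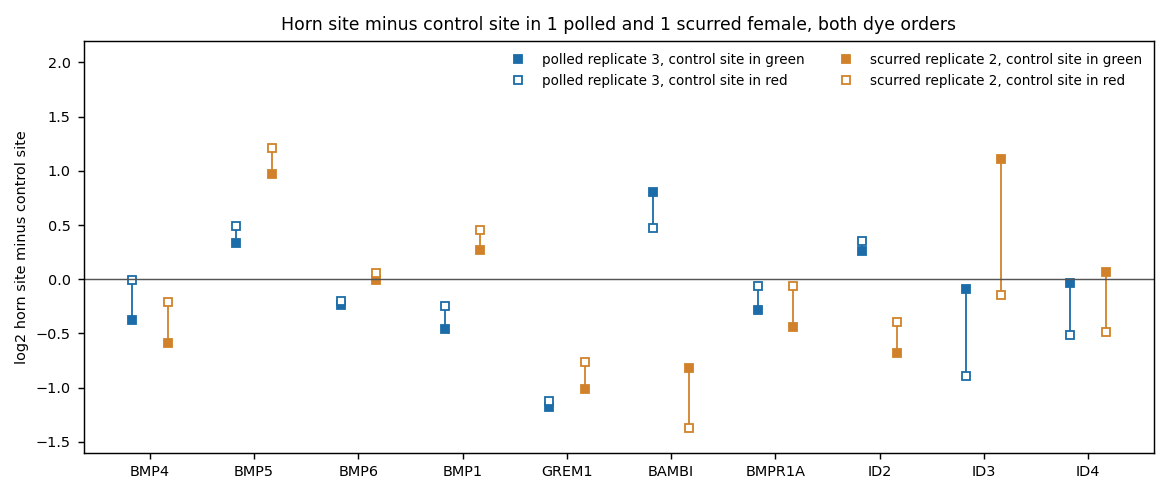
Horn site minus control site (y axis, log2) for the 10 genes on each of 4 arrays, 2 dye orders for polled replicate 3 and 2 for scurred replicate 2, joined by a line within an animal. GREM1 lies below 0 and BMP5 above 0 on 4 of 4 arrays, and the dye orders of ID3 differ by 0.80 in the polled and 1.25 in the scurred animal. The share of all probes with 1 sign on 4 of 4 arrays was not counted.

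Other genes of the BMP pathway were read from a list of 62, of which 53 were on the array and 45 were tested on chips 1 to 4. In polled against horned skin 0 of 45 passed an adjusted p of 0.05, 24 had a higher and 21 a lower estimate, and the median was 0.0089. At an unadjusted p under 0.05 there were 2 higher and 3 lower of the 45, beside 9.17% of all probes. Those of lowest p were the ligand GDF6 at −1.26 (SE 0.231), the transcription factors GATA3 at 2.26 (SE 0.654) and MSX1 at −0.61 (SE 0.186), PCOLCE, which enhances the procollagen-trimming activity of BMP1, at −1.36 (SE 0.476), and the BMP co-receptor RGMB at 0.58 (SE 0.224). GDF6 ran from −1.50 to −0.73 in the 4 polled animals and MSX1 from −1.11 to −0.27. PCOLCE lay at −0.61, −1.90, −1.53 and −0.53, the same direction as BMP1 in the same animals.

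In scurred against horned skin 0 of 45 passed, with 24 higher and 21 lower estimates. At an unadjusted p under 0.05 there were 2 higher and 2 lower of the 45, beside 3.76% of all probes. The BMP target MSX1 led at −1.10 (SE 0.177), at −1.41, −1.28, −0.69 and −1.37 in the 4 scurred animals. GDF6 stood at −0.71 (SE 0.22), the ligand GDF10 at 0.92 (SE 0.312), SMURF2, a ubiquitin ligase of SMADs and receptors, at 0.38 (SE 0.159) and GATA3 at 1.37 (SE 0.622). In scurred against polled skin 0 of 45 passed, with 25 higher and 20 lower estimates. At an unadjusted p under 0.05 there were 3 higher and 1 lower of the 45, beside 6.08% of all probes. GDF10 stood at 0.98 (SE 0.318), MSX1 at −0.50 (SE 0.181), PCOLCE at 1.19 (SE 0.462), GDF6 at 0.56 (SE 0.224) and NBL1, a secreted BMP antagonist, at 0.63 (SE 0.272). PCOLCE and BMP1 thus both had higher estimates in scurred than in polled animals.

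Between male and female animals 0 of 45 pathway genes passed and 0 had an unadjusted p under 0.05, beside 0.0184% and 2.16% of all probes. Those of lowest p were FSTL1, a follistatin-like glycoprotein, at −0.35 (SE 0.159), MSX1 at −0.33 (SE 0.162), GDF10 at −0.49 (SE 0.284), GDF6 at −0.29 (SE 0.201) and SMURF2 at 0.19 (SE 0.145), male minus female. At the horn site against the control site 0 of 44 passed, with 19 higher and 25 lower estimates. An unadjusted p under 0.05 was found for 2 higher and 2 lower of the 44, beside 4.90% of all probes. The antagonist CHRDL1 stood at 1.04 (SE 0.146), the follistatin-like protein FSTL3 at −0.72 (SE 0.153), the inhibitory SMAD7 at −0.53 (SE 0.113), NBL1 at 0.40 (SE 0.115) and the BMP target ATOH8 at 0.34 (SE 0.111). CHRDL1 was at 0.86 in the polled and 1.22 in the scurred animal, the opposite direction to GREM1 in both.

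Levels of the 10 genes were compared with each other over the 11 animals, in 45 pairs. None passed an adjusted p of 0.05 by Pearson's r, and 4 had an unadjusted p under 0.05. By Spearman's rho 0 passed and 9 had an unadjusted p under 0.05. The share of pairs among all probes with such a p was not counted, so these counts do not set the 10 genes apart. BMP4 and BAMBI correlated at r = 0.78 (permutation p 0.00341, adjusted 0.099) and rho = 0.63 (permutation p 0.0445, adjusted 0.223). ID3 and ID4 correlated at r = 0.78 (permutation p 0.0044, adjusted 0.099) and rho = 0.77 (permutation p 0.00725, adjusted 0.146). BMP1 and GREM1 ran opposite, at r = −0.76 (permutation p 0.00701, adjusted 0.105) and rho = −0.78 (permutation p 0.00656, adjusted 0.146). BMP6 and BMP1 correlated at r = 0.69 (permutation p 0.0162, adjusted 0.183) and rho = 0.72 (permutation p 0.0168, adjusted 0.151).

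Without the 2 animals farthest from the median of the first gene, r was 0.53 for BMP4 and BAMBI, 0.69 for ID3 and ID4, −0.73 for BMP1 and GREM1 and 0.51 for BMP6 and BMP1. Within the 8 animals of chips 2 to 4, scanned on 1 day, r was 0.87, 0.87, −0.86 and 0.83 for these pairs in that order, and 0 of 45 pairs passed. The animals share chips and differ in horn type and sex. ID3 and ID4 also share a dye effect, for which the fit that gave the levels held a term.

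**Figure D5:**
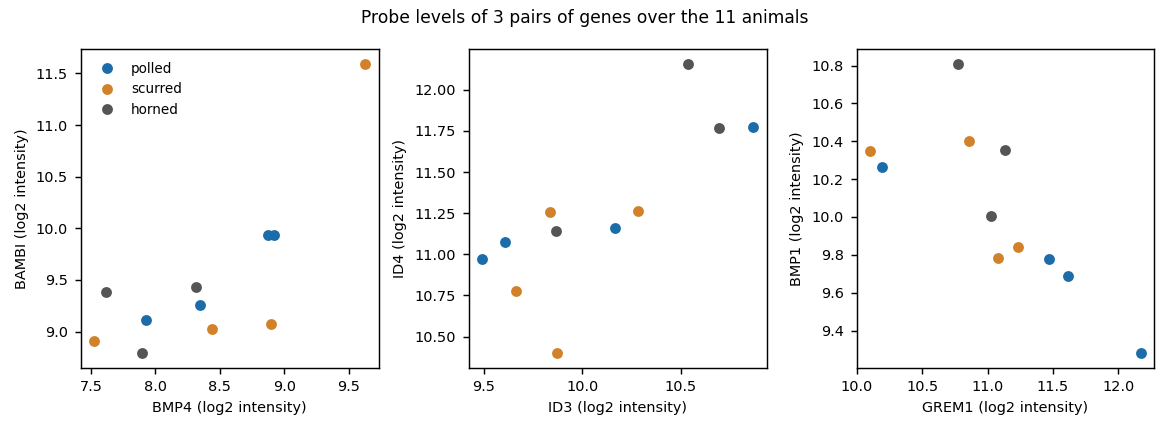
Log2 intensity of BAMBI against BMP4, of ID4 against ID3 and of BMP1 against GREM1 in 4 polled, 4 scurred and 3 horned animals. BMP4 and BAMBI as well as ID3 and ID4 run together, and GREM1 and BMP1 run opposite (r = 0.78, 0.78 and −0.76), and 1 scurred animal lies far above the rest for BAMBI.

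For each of the 10 genes, the 2 named genes of most similar level over the 11 animals were taken by Pearson's r among 12749 probes. BAMBI had NEFM (r = 0.97) and WIF1 (0.94), and GREM1 had ATG5 (0.97) and C7H1orf35 (0.95). BMP4 had HS2ST1 (0.91) and NDNF (0.90), BMP5 had TMF1 (0.95) and RGN (0.95), and BMP6 had ADAMTS17 (0.94) and COL11A1 (0.92). BMP1 had SELENON (0.93) and ILVBL (0.92), and BMPR1A had FCF1 (0.89) and EYA1 (0.89). ID2 had SLC25A30 (0.96) and MKLN1 (0.95), ID3 had C1D (0.90) and IRF1 (0.90), and ID4 had IRF1 (0.92) and CAPRIN2 (0.91). IRF1 was the 1 gene listed for more than 1 of the 10. These are the highest of many values over few animals, and are given as a description.

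After the fit of animals and dye, arrays left a residual SD of 0.049 (ID2) to 0.17 (ID3) in log2, and the 4 animals of a group spanned 0.065 (BMPR1A, scurred) to 2.63 (BAMBI, scurred) in their difference from horned.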

How the data were processed

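The deposited scanner files give mean intensity and local background of each spot in both dyes, made with Agilent Feature Extraction 9.5.1 per the submitters' processing notes. The deposited value table holds log10 ratios of red over green, equal in size to those of the scanner files. Its 6 columns from exchanged dyes were turned in sign, and it served as an alternative. Intensities were corrected with normexp (offset 50), normalized by loess within arrays in limma 3.58.1 (R 4.3.3, with version 1.17.8 of data.table), and duplicate spots averaged, leaving out flagged spots. Log2 ratios of chips 1 to 4 gave 8 differences from the horned animal of a chip, with a dye coefficient. Generalized least squares with terms for polled, scurred and male followed, with limma's moderated test (5 residual degrees of freedom), Benjamini-Hochberg adjustment over 16309 probes and a threshold of 0.05. A probe was tested if well above background in at least 3 of 11 animals. Chip 5 tested the mean of 2 animals against 0 over 16423 probes (at least 2 of 4 RNAs). Levels came from channels taken separately (loess, then Aquantile), fitted per animal with a dye term. Correlations used 100000 permutations.

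The chip acts as a block by design, since each ratio lies within an array. Deviations of polled and scurred animals of 1 chip correlated at 0.237, 0.287, 0.422 and −0.082 across probes, which are not independent replicates. Per the file headers, the scan day of chip 1 differed from that of the other chips. Both fits were tested on simulated data. A RefSeq gene table served for names alone, and 16062 of 21475 probes were given a symbol. The 10 genes and all lists were chosen with earlier results of these data known. Named genes are the 10, the 5 pathway genes of lowest unadjusted p per comparison and, for each of the 10, the 2 most similar genes over 11 animals; SOST and DLX5 fall outside this rule and were added after their values were seen. Alternatives were the deposited ratios, no background correction, median centring, no filter, no sex term, no block, and each chip or animal left out. The number of arrays limits the precision.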

Additional observations from a re-analysis of the deposited data

Results flagged for a closer look

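Differences from the horned partner were checked in 20 groups of 4 animals for a single value far from the rest. There were 2 groups that held one, and chance gives about 1 in 20 groups. BAMBI in polled replicate 1 stood at −0.28 from its horned partner, while the other polled animals lay between 0.45 and 0.58. In level, polled replicates 1 to 4 lay at 9.11, 9.94, 9.26 and 9.94, with no single animal apart. The partner of polled replicate 3 was the lowest horned animal, at 8.79. ID4 in scurred replicate 1 stood at −1.83, while the other scurred animals lay between −0.59 and −0.34.

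At the horn site against the control site, 3 genes moved one way on both arrays of the polled animal and the other way on both arrays of the scurred animal. BMP1 stood at −0.36 in the polled and 0.36 in the scurred animal, BAMBI at 0.64 and −1.10, and ID2 at 0.31 and −0.54. With 1 animal each, these differences were not tested. How many of all probes met the same rule was not counted. Among all probes, 50.5% had 1 sign in both animals, so opposite signs were common.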

How the results depend on the processing

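Of the 10 genes, 0 passed an adjusted p of 0.05 in any comparison under any setting tried, and neither did any of the tested pathway genes. The 45 pairs were run by Pearson's r, Spearman's rho and Pearson's r on chips 2 to 4 alone, and 0 passed in each. The adjusted p ranged from 0.257 to 1 for polled against horned, 0.648 to 1 for scurred against horned, 0.435 to 1 for scurred against polled, 0.911 to 1 for male against female and 0.539 to 1 for horn site against control site. Of 870 values, 80 changed sign, 60 of them with a chip or animal left out; the cause was not tested. The deposited ratios moved 16 of 50 values by over 1.5 times, among them BMP6 in polled against horned (−0.75), in scurred against polled (0.68) and in male against female (0.68, unadjusted p 0.0317, adjusted p 1, limma) and BMP5 at the horn site (1.60). With these ratios, BMP6 in scurred against horned was −0.073, BMP5 and BMPR1A in scurred against polled −0.065 and −0.0082, and BMP1 at the horn site −0.0044. With no background correction BMP6 in scurred against horned was −0.00826 and BMP5 in scurred against polled −0.00704. With median centring, BMP5 and BMPR1A in scurred against polled were −0.0019 and −0.0503, BMP1 and ID2 in male against female 0.078 and 0.018, and BMP6 and BMP1 at the horn site 0.102 and −0.231; this setting moved the median of all probes there by −0.112. With no sex term, scurred against polled was 0.057 for BMP4, −0.142 for BMP5, 0.084 for BAMBI and −0.0696 for ID3. With no replicate block, BMP6 in scurred against horned was −0.025, BMP4 and BMP5 in scurred against polled 0.054 and −0.0042, and BMP1 in male against female 0.103; the block changed no call.

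With a chip or animal left out, 38 of 40 values moved by over 1.5 times in at least 1 fit, all but GREM1 in scurred against polled and ID3 in polled against horned. Values that changed sign in at least 1 fit ran as follows. Polled against horned ran from −0.58 to 0.309 for BMP5 and −0.129 to 0.065 for BMPR1A. Scurred against horned ran from −0.539 to 0.045 for BMP5, −0.0835 to 0.064 for BMP6, −0.249 to 0.112 for BMP1 and −0.203 to 0.519 for BAMBI. Scurred against polled ran from −0.543 to 0.113 for BMP4, −0.78 to 0.328 for BMP5, −0.034 to 0.253 for BMP6, −0.182 to 0.574 for BMP1, −1.30 to 0.226 for BAMBI, −0.152 to 0.1003 for BMPR1A, −0.364 to 0.044 for ID2, −0.047 to 0.244 for ID3 and −0.556 to 0.101 for ID4. Male against female ran from −0.551 to 0.428 for BMP5, −0.136 to 0.571 for BMP1, −0.288 to 0.022 for ID2 and −0.368 to 0.028 for ID4. GREM1 in scurred against polled stayed between −0.93 and −0.71 in 15 such fits, all with the sex term and the block. It was −0.57 with no sex term and −0.66 with no replicate block. BMP1 in polled against horned ran from −0.81 to −0.067 and ID4 in scurred against horned from −0.94 to −0.36. Polled replicate 2 and scurred replicate 2, both of chip 2, were the only polled male and the only scurred female. Fits without either part horn type from sex poorly. Leaving out an animal of chip 5 leaves 1 animal and no test.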
